A study of Bos taurus with 31 samples.

Results

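The 16 lactating libraries of a bovine mammary series were compared among themselves, after they had been divided by how much of each library came from milk protein genes. For each library, the percent of all counts that fell on CSN1S1, CSN1S2, CSN2 and CSN3 (the caseins), LALBA (alpha-lactalbumin) and PAEP (beta-lactoglobulin) was computed. The members of each class were thus chosen by the level of these 6 transcripts. Libraries with 10% or more formed the high-milk class, with 9 of the 16, and the other 7 formed the low-milk class. The whole series holds 31 libraries. Each came from mammary epithelial organoids, clumps of epithelium freed from a biopsy of a dairy cow (Bos taurus) with collagenase, trypsin and hyaluronidase and washed free of most single cells. The 16 lactating biopsies were taken at 40 to 60 days of lactation, and 15 of the same animals had been biopsied as virgins at 14 months of age; the animal of L495 had a lactating library only. No treatment, breed or genotype is given, and each group is 1 library per animal. Because the classes were made from counts in these same libraries, every value of high-milk against low-milk libraries below is a description, and the threshold applied to it, a Benjamini-Hochberg adjusted p under 0.05 in edgeR's quasi-likelihood fit of all 13755 rows, is used to sort genes and not as a test of the split.

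Milk is made by the luminal alveolar cells of the mammary gland. Prolactin, acting through its receptor and the kinase JAK2, activates STAT5, which together with ELF5 switches on the casein and whey protein genes. The same cells take up fatty acids and build new ones, wrap triglyceride droplets in membrane as milk fat globules, make lactose in the Golgi, and pump calcium and phosphate into casein micelles. A layer of contractile myoepithelial cells surrounds the alveoli, and a dense capillary bed feeds them.

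The low-milk class ran from 0.150% of counts in L538 (libraries are named by L for lactating or V for virgin and the animal's number) and 0.362% in L478, through 3.40% in L531, 3.44% in L581, 5.03% in L504 and 5.88% in L615, to 6.88% in L490. The high-milk class began at 16.8% in L595 and reached 23.1% in L468, 23.9% in L610, 26.0% in L509, 26.5% in L495, 26.8% in L598, 30.4% in L507, 35.8% in L502 and 38.6% in L479. L490 is therefore the library just outside the limit and L595 the one just inside it. No virgin library passed 0.440%, the value of V509, and the next highest was V490 at 0.123%. L538 and L478 therefore lay below V509 but above every other virgin library. The deposited table lists some loci under more than one name; with each locus counted once, L490 had 11.2% and would have joined the high-milk class, while L615 stayed under the limit at 9.66%.

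**Figure D1:**
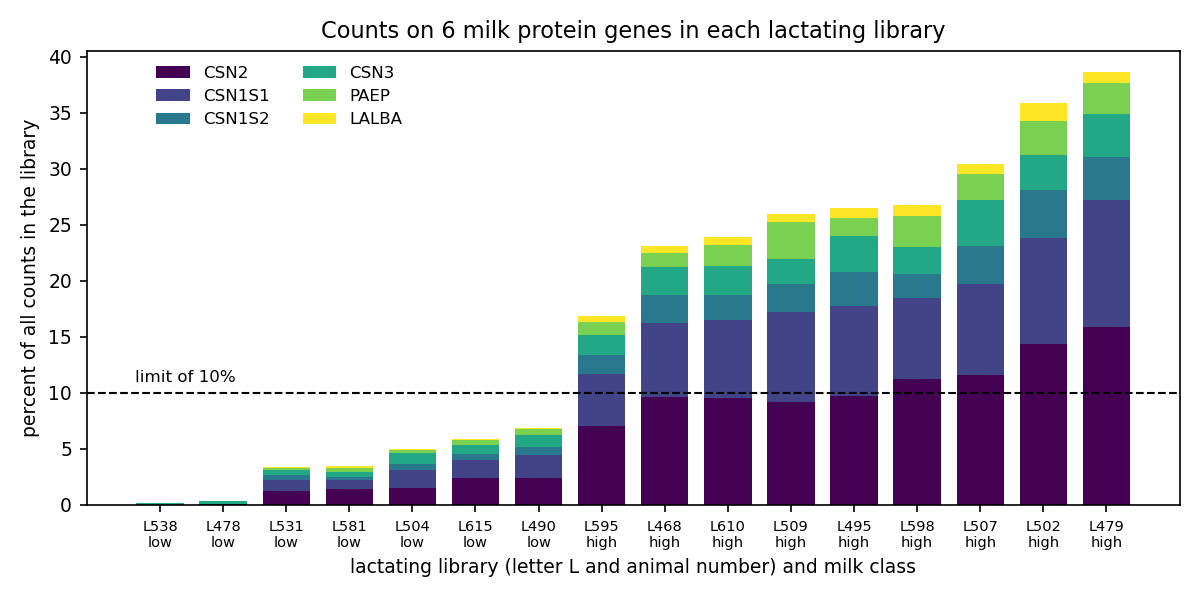
Percent of all counts on CSN2, CSN1S1, CSN1S2, CSN3, PAEP and LALBA (stacked colours) in each of the 16 lactating libraries, ordered by their sum, with the limit of 10% as a dashed line. The 7 low-milk libraries reach at most 6.88% and the 9 high-milk libraries start at 16.8%.

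All 6 genes of the rule moved together between the classes. CSN2 held 7.08 to 15.9% of counts in the high-milk libraries (median 9.74%) and 0.0211 to 2.40% in the low-milk libraries (median 1.41%). LALBA, the regulatory subunit of lactose synthase, held 0.4926 to 1.59% and 0.00160 to 0.121%. CSN3, the casein on the micelle surface, differed least of the 6, with a log2 difference of 2.84, and LALBA most, with 4.33. CSN3 also had the highest floor: it held 0.101% of counts in L538, against 0.0171% for CSN1S1 in the same library. These values chose the classes and are given for scale only; the counted locus of LALBA is over 2 times the length of the gene, so its counts can include reads of neighbours.

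Libraries of both classes were deep, with 26827018 to 61664265 counts in the high-milk class, 32373541 to 72138358 in the low-milk class and 20128378 to 60114505 in the virgin libraries, repeated loci included. With each locus counted once, the mitochondrial locus took 7.65 to 12.1% of the counts outside the 6 milk genes in the high-milk libraries. It took 5.74 to 9.75% in the low-milk libraries and 4.17 to 7.36% in the virgin libraries. This locus stands in 7 rows of the table. In the total counts that the 10% rule used, those rows together took 21.7 to 35.3% in high-milk, 25.9 to 37.3% in low-milk and 21.0 to 32.4% in virgin libraries. Nothing in the labels gives a sequencing batch or date for the lactating libraries. In these bulk samples, fewer cells of a type and less RNA per cell cannot be told apart.

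Across the table, 3909 of 13755 rows passed the threshold between the classes (28.4%), 1977 of them higher (14.4%) and 1932 lower (14%) in high-milk libraries. Every high-milk library lay above every low-milk library in 438 rows (3.18%) and below in 181 rows (1.32%). Levels are in CPM, edgeR's unit of counts scaled to a common library size, here with TMM factors, which assume that most rows keep their level; log2 differences are high-milk minus low-milk from the fit, ± SE. Without those factors the median of all rows moved by -0.52 and the split became 526 higher (5.85% of the calls, against 50.6%) and 8465 lower. Differences below are relative to that shift, and the counts under other settings follow each gene group in brackets, higher first and lower second. A further fit set each lactating library against the virgin library of its own animal (30 libraries). It compared the change from virgin to lactating between the classes, high-milk minus low-milk, and not lactating with virgin libraries. Counts against the own virgin libraries below are from this fit. There, 154 rows were higher and 25 lower, and 154 and 18 of these were among the calls above.

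Milk proteins outside the rule mostly went the same way as the caseins, with smaller differences as a group: the 4 caseins had log2 differences of 2.84 to 3.66. Of 17 tested, 11 were higher and 1 lower in high-milk libraries, with a median log2 difference of 1.41 against -0.016 over all rows (7 and 3 without TMM factors, 9 and 1 without L478 and L538, 3 and 0 against the own virgin libraries). GLYCAM1, a mucin-like milk protein, had 4020.2 to 10424 CPM (median 5987) in the high-milk libraries and 9.59 to 991 CPM (median 571) in the low-milk libraries. It was at 0 in 10 of the 15 virgin libraries. The classes did not overlap, and L538, at 9.59 CPM, lay within the virgin range, which reached 10.9 CPM. The log2 difference between the classes was 3.68 ± 0.73.

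HSTN, histatherin, a small secreted protein encoded among the casein genes, went from 0.574 to 71.5 CPM (median 37.1) in the low-milk libraries to 216 to 544 CPM (median 438) in the high-milk libraries. LPO, the lactoperoxidase that makes antibacterial oxidants in milk, had 0.711 to 117 CPM (median 26.8) in the low-milk and 148 to 728 CPM (median 329.8) in the high-milk libraries. FOLR1, the folate receptor, which shares its counted locus with FOLR3, differed by 3.14 ± 0.56. None of these 3 overlapped between the classes, and in each of them L538 was the lowest library. CLU, clusterin, a chaperone secreted into milk, was the 1 member that was lower, at 385 to 979.8 CPM (median 467) in high-milk libraries against 758 to 2609 CPM (median 1022) in low-milk libraries, with L478 and L538 highest.

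Genes of the milk fat globule, the droplet of triglyceride that leaves the cell wrapped in its apical membrane, had the largest median of the 29 gene lists with tested members. Of 11 tested, 9 were higher and 0 lower, with a median of 1.95 (7 and 0 without TMM factors, 7 and 0 without L478 and L538, 5 and 0 against the own virgin libraries). FABP3, a fatty acid carrier, had 171 to 656 CPM (median 384) against 2.13 to 77.7 CPM (median 39.6), a difference of 3.61 ± 0.55, although its counted locus is over 2 times the gene's length. BTN1A1, butyrophilin, which anchors the droplet coat, had 212 to 617 CPM (median 386) against 0.383 to 95.5 CPM (median 33.7). Its level in L538, 0.383 CPM, was close to the virgin median of 0.317 CPM.

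The coat genes differed in where the low-milk libraries lay against the virgin ones. MFGE8, lactadherin, had 821 to 2057 CPM (median 1259) in high-milk and 149 to 259 CPM (median 198) in low-milk libraries, and L531, L478 and L538, the lowest 3, lay within the virgin range of 46.2 to 198 CPM. XDH, xanthine dehydrogenase, which binds butyrophilin, had 622 to 1472 CPM (median 984) and 249 to 502.2 CPM (median 321), with all 16 lactating libraries above the highest virgin library at 239.8 CPM. MUC15 and MUC1, membrane mucins, differed by 2.92 ± 0.62 and 2.61 ± 0.32. PLIN2 and PLIN3, which coat droplets inside the cell, were the 2 members that did not pass, at 0.24 ± 0.24 and 0.19 ± 0.20; they are named here after their values were seen, and both changed sign without TMM factors.

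Fatty acid synthesis was split within its list. Of 19 tested genes, 9 were higher and 2 lower, with a median of 0.85 (6 and 7 without TMM factors, 9 and 2 without L478 and L538, 5 and 0 against the own virgin libraries). FASN, fatty acid synthase, had 339 to 775 CPM (median 531.2) in the high-milk and 27.5 to 141 CPM (median 92.3) in the low-milk libraries, without overlap. The lowest virgin library had 42.5 CPM of FASN, above both L478 (27.5) and L538 (27.9). ACACA, acetyl-CoA carboxylase, which commits carbon to fatty acids, had 86.4 to 207 CPM (median 121) against 26.5 to 48.0 CPM (median 36.3), and the low-milk libraries overlapped the virgin range of 30.8 to 72.0 CPM (median 49.1).

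SCD, the desaturase that makes oleate, had 1589 to 3168 CPM (median 2085) in high-milk libraries and 17.8 to 501.7 CPM (median 234) in low-milk libraries, the steepest of the list at 3.05 ± 0.57, with a locus over 2 times the gene's length. ACSS2, which activates acetate, the main carbon source of milk fat in ruminants, differed by 2.62 ± 0.34, and FADS2, a desaturase at a low level, by 2.25 ± 0.48. SREBF1, the transcription factor of lipid synthesis, had 28.7 to 85.6 CPM (median 40.8) against 10.5 to 26.2 CPM (median 18.1). THRSP, a lipogenic protein under 1 CPM in every lactating library, and ME1, malic enzyme, were the 2 that were lower, at -1.17 ± 0.43 and -1.08 ± 0.22.

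Uptake of fatty acids from blood and triglyceride assembly differed in most of the genes tested. Of 19 tested, 15 were higher and 2 lower, with a median of 1.18 (10 and 4 without TMM factors, 13 and 2 without L478 and L538, 7 and 0 against the own virgin libraries). LPL, the lipoprotein lipase that frees fatty acids at the capillary wall, had 211 to 608 CPM (median 389.7) in high-milk libraries, 7.62 to 58.7 CPM (median 35.6) in low-milk libraries and 0.691 to 10.4 CPM (median 4.47) in virgin libraries. The high-milk and low-milk ranges did not overlap, and L478 and L538 were the only lactating libraries within the virgin range. CD36, a fatty acid receptor whose locus carries 3 names, differed by 1.95 ± 0.25.

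ABCG2, the transporter that carries riboflavin and drugs into milk, had 120.5 to 343 CPM (median 222) against 3.80 to 37.5 CPM (median 20.2). BDH1, which interconverts ketone bodies, had 3.25 to 10.6 CPM (median 6.08) against 0.103 to 0.982 CPM (median 0.728). LPIN2, a phosphatidate phosphatase, and SLC27A1, a fatty acid transporter, were the 2 lower members, at -0.69 ± 0.13 and -0.30 ± 0.09, and are named after their values were seen.

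Cholesterol synthesis went the same way with smaller differences. Of 26 tested genes, 17 were higher and 0 lower, with a median of 0.60 (8 and 5 without TMM factors, 15 and 0 without L478 and L538, 6 and 0 against the own virgin libraries). HMGCS1, HMG-CoA synthase, had 117 to 339.9 CPM (median 194) in high-milk and 18.6 to 74.9 CPM (median 41.7) in low-milk libraries. The classes did not overlap, and L478 and L538 were below every virgin library. INSIG1, the sterol sensor that restrains the pathway, differed by 2.00 ± 0.24, with a locus over 2 times its length.

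Lactose synthesis and glucose entry did not follow as a group. Of 16 tested, 4 were higher and 1 lower, a share near that of all rows, with a median of 0.25 (2 and 7 without TMM factors, 4 and 1 without L478 and L538, 1 and 0 against the own virgin libraries). UGP2, which makes the UDP-glucose from which lactose is built, had 60.6 to 147 CPM (median 103) against 19.4 to 84.5 CPM (median 38.0). SLC2A3, a glucose transporter, differed by 1.302 ± 0.28. B4GALT1, the catalytic subunit of lactose synthase, had 441 to 1039.9 CPM (median 579) and 344 to 757 CPM (median 428), did not pass at 0.36 ± 0.18, and turned to -0.20 without TMM factors.

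SLC2A1, the main glucose transporter of the mammary epithelium, went against the milk genes. It had 445 to 1042 CPM (median 550.4) in high-milk libraries and 734 to 2934 CPM (median 1163) in low-milk libraries, a difference of -1.23 ± 0.25. L478 and L538 were the highest of the 16, at 2934 and 1829.5 CPM, above the highest virgin library at 1061 CPM. The classes overlapped through L468, the highest high-milk library.

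Among transporters of calcium, phosphate and zinc, 7 of 18 tested were higher and 2 lower, with a median of 0.23 (4 and 9 without TMM factors, 6 and 2 without L478 and L538, 4 and 0 against the own virgin libraries). Over all rows, 14.4% were higher and 14% lower. SLC34A2, the phosphate cotransporter, had 36.5 to 94.5 CPM (median 62.5) against 1.59 to 17.8 CPM (median 7.11), and the low-milk libraries lay within the virgin range of 0.576 to 24.0 CPM (median 5.82). ATP2C2, a Golgi calcium pump, had 94.7 to 245 CPM (median 168) against 8.80 to 79.8 CPM (median 26.3). SLC30A2, which loads zinc into secretory vesicles, differed by 2.68 ± 0.45, with a locus over 2 times its length, and ORAI1, a calcium entry channel, by 1.36 ± 0.18.

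Other pumps behaved differently. ATP2B2, the plasma membrane pump known for moving calcium into milk, was counted at only 0.249 to 1.76 CPM (median 1.20) in high-milk libraries and 0.301 to 0.865 CPM (median 0.545) in low-milk libraries, with a difference of 1.17 ± 0.29. ATP2A2, the pump of the endoplasmic reticulum, was lower in high-milk libraries, at 731 to 973 CPM (median 839) against 998 to 2684 CPM (median 1375), and ATP2B1 was lower too, at -0.76 ± 0.16. SLC30A4, a zinc transporter, did not pass, at -0.06 ± 0.16.

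Of 19 amino acid transporters, 7 were higher and 1 lower, with a median of 0.33 (2 and 8 without TMM factors, 7 and 1 without L478 and L538, 2 and 0 against the own virgin libraries). Over all rows, 14.4% were higher and 14% lower. SLC7A4, with a locus over 2 times its length, had 12.7 to 50.6 CPM (median 21.3) against 1.19 to 5.21 CPM (median 2.51). SLC38A3, a glutamine transporter, had 12.6 to 37.4 CPM (median 21.2) against 1.64 to 8.37 CPM (median 3.97). SLC1A1, a glutamate transporter, was the lower member, at -0.99 ± 0.17, and SLC6A14, which carries neutral and basic amino acids, differed by 1.20 ± 0.32.

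**Figure D2:**
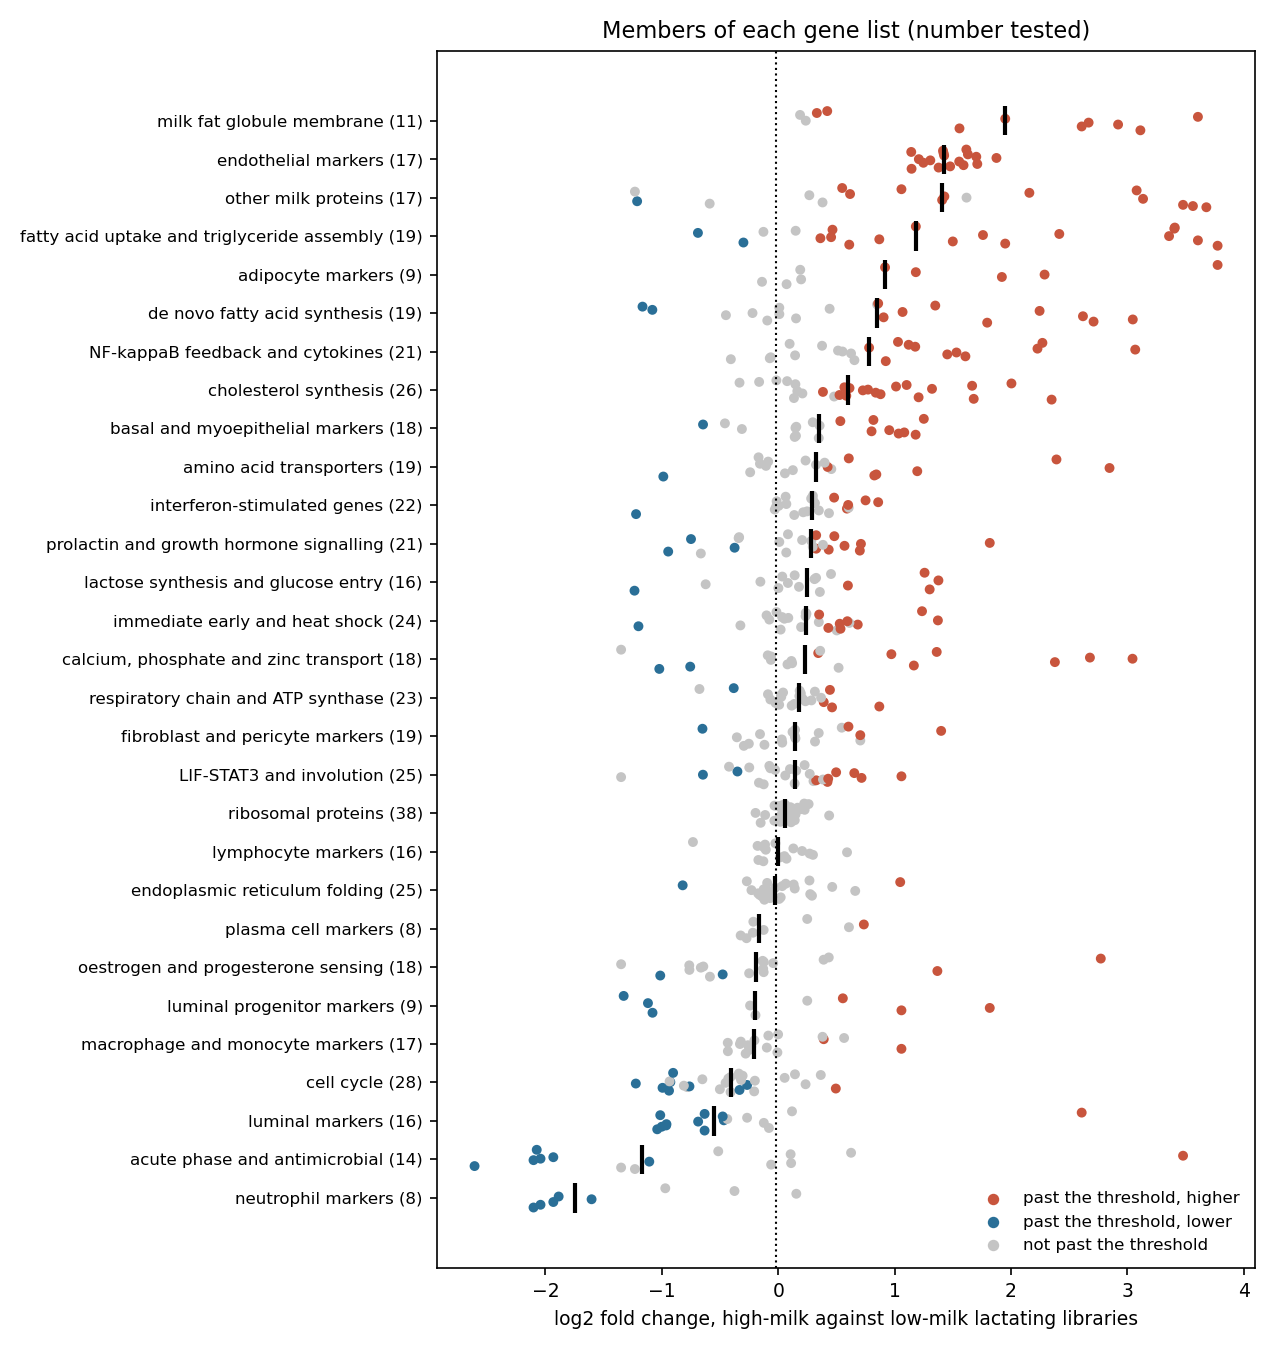
Each point is 1 member of a gene list, placed by its log2 difference between high-milk (n = 9) and low-milk (n = 7) lactating libraries, red or blue past the threshold and grey otherwise; black bars are list medians and the dotted line is the median of all rows. Milk fat globule, endothelial and milk protein lists sit to the right, with medians of 1.95, 1.43 and 1.41, and acute phase and neutrophil lists to the left, with medians of -1.17 and -1.75.

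Genes of prolactin and growth hormone signalling had a smaller median than the milk proteins outside the rule, whose median was 1.41. Of 21 tested, 8 were higher and 3 lower, with a median of 0.28 (1 and 9 without TMM factors, 8 and 2 without L478 and L538, 1 and 0 against the own virgin libraries). ELF5, the alveolar transcription factor, had 226 to 721 CPM (median 468.2) in high-milk libraries, 41.8 to 210.1 CPM (median 119) in low-milk libraries and 39.9 to 329 CPM (median 148) in virgin libraries, and only the high-milk median lay above the highest virgin library. Its locus is over 2 times the gene's length. STAT5A had 24.4 to 46.1 CPM (median 29.5) against 12.5 to 27.0 CPM (median 17.5), overlapping, with a difference of 0.70 ± 0.16.

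STAT5B differed by 0.43 ± 0.12, with -0.11 without TMM factors. CISH and SOCS2, feedback inhibitors switched on by STAT5, differed by 0.71 ± 0.17 and 0.57 ± 0.13. PRLR, the prolactin receptor, did not pass, at -0.66 ± 0.28, and its low-milk libraries covered a wide range of 195 to 1009 CPM (median 439). JAK2, the kinase bound to the receptor, was lower in high-milk libraries, at 122 to 229 CPM (median 133) against 152 to 499 CPM (median 208); INSR, the insulin receptor, was lower too, at -0.75 ± 0.13. GHR, the growth hormone receptor, did not pass, at 0.07 ± 0.13.

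Oestrogen and progesterone sensing genes, which mark mature luminal cells outside the alveolar lineage, stayed near the background. Of 18 tested, 2 were higher and 2 lower, with a median of -0.19 (1 and 12 without TMM factors, 1 and 0 without L478 and L538, 1 and 0 against the own virgin libraries). AGR2, a disulphide isomerase, had 3.08 to 16.4 CPM (median 10.4) against 0.301 to 3.01 CPM (median 1.10), and TFF3, a trefoil peptide with a locus over 2 times its length, differed by 1.37 ± 0.41. FOXA1, a pioneer factor for the oestrogen receptor, was lower in high-milk libraries, at 2.23 to 10.3 CPM (median 4.77) against 4.65 to 18.3 CPM (median 10.8). ESR1, the receptor itself, had 2.99 to 24.4 CPM (median 4.68) and 6.52 to 19.5 CPM (median 13.3) and did not pass, at -0.59 ± 0.44.

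Genes of the machinery that makes and exports protein held few calls. Among 25 genes of folding in the endoplasmic reticulum, 1 was higher and 1 lower, with a median of -0.03 (1 and 20 without TMM factors, 2 and 1 without L478 and L538, 0 and 0 against the own virgin libraries). They were CREB3L1, a transcription factor of secretory cells, at 1.05 ± 0.16, and EIF2AK3, the stress kinase PERK, at -0.82 ± 0.19. None of 38 ribosomal protein genes passed in edgeR's quasi-likelihood fit (1 higher and 0 lower at an unadjusted p under 0.05, 0 by DESeq2), and their median was 0.06 (0 and 34 without TMM factors, 0 and 0 without L478 and L538, 0 and 0 against the own virgin libraries). Of 23 nuclear genes of the respiratory chain, 4 were higher, near the share of 14.4% over all rows, and 1 lower (0 and 13 without TMM factors, 1 and 0 without L478 and L538, 0 and 0 against the own virgin libraries), with NDUFA4 the highest at 0.87 ± 0.23. Leaving out L478, L495, L502, L538 or L581, each alone, left 2 higher.

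The genes with the largest differences outside these lists were not all milk genes. RRAD, a small GTPase that holds back calcium channels, had 19.2 to 98.1 CPM (median 53.0) in high-milk and 2.35 to 6.61 CPM (median 3.84) in low-milk libraries. ALOX15, a lipoxygenase of arachidonic and linoleic acid, had 16.8 to 61.9 CPM (median 36.4) against 0.355 to 4.32 CPM (median 2.56), and TMC5, a transmembrane channel-like protein, had 14.1 to 40.5 CPM (median 25.4) against 0.0547 to 5.9998 CPM (median 1.98). HHIPL2, with a locus over 2 times its length, differed by 3.58 ± 0.55. These 4 were picked from rows without overlap between the classes. In each of them no virgin library reached the lowest high-milk library.

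Histone genes stood among the largest of all, and were looked at as a family only after that was seen. H2B, at 4.49 ± 0.38, had the largest difference of the genes named by the rule, from 0.0882 to 0.890 CPM (median 0.477) in low-milk libraries to 5.28 to 15.1 CPM (median 10.4) in high-milk libraries. Its locus is 12.1 times the gene's length. Another H2B locus, 1.99 times the gene's length and at lower levels (medians 1.25 and 0.169 CPM), differed by 2.31 ± 0.33. HIST1H3E had 10.4 to 30.8 CPM (median 18.6) against 0.294 to 2.61 CPM (median 1.36), and H4 had 6.52 to 18.2 CPM (median 8.47) against 0.355 to 1.61 CPM (median 0.653). They were counted over 12381 and 1506 bases, with no reference gene length to set beside these, so reads of neighbours can be included. Of 22 histone loci tested, 12 were higher and 0 lower (11 and 6 without TMM factors, 12 and 0 without L478 and L538, 8 and 0 against the own virgin libraries). Over all rows, 14.4% were higher. Of the 12, 11 did not overlap between classes, where 3.18% of all rows had every high-milk library above every low-milk library. Replication-type histone messages normally end in a stem loop and not in a poly-A tail, and the libraries were selected for poly-A.

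The histone loci moved without the genes of cell division. HIST2H2BE had 134 to 229.6 CPM (median 198) against 29.7 to 76.9 CPM (median 39.6), and the locus shared by HIST1H2BD, HIST1H2AC and HIST1H1E had 59.7 to 214 CPM against 5.27 to 22.4 CPM. HIST2H2BE, whose locus carries 2 names, was counted over 22662 bases and the shared locus over 47876 bases, also without a reference gene length. H1F0, a linker histone of resting cells, had 20.4 to 37.7 CPM (median 23.4) and 8.20 to 12.4 CPM (median 10.1), below most virgin libraries at 21.4 to 127 CPM (median 59.5). Among 28 cell cycle genes, 1 was higher and 8 lower, with a median of -0.41 (0 and 24 without TMM factors, 0 and 7 without L478 and L538, 0 and 0 against the own virgin libraries). CENPF, BUB1 and CCNB1, which act at mitosis, differed by -1.22 ± 0.41, -0.99 ± 0.33 and -0.94 ± 0.30, all at low levels, and CCNE2, a cyclin of entry into S phase, was the 1 higher, at 0.50 ± 0.17. L490, the library nearest the class limit, was the highest low-milk library in all 3 mitotic genes, with 6.14 CPM of CENPF where the other low-milk libraries had 0.720 to 2.64 CPM. With classes from loci counted once, where L490 is a high-milk library, CENPF turned to 0.13, BUB1 and CCNB1 no longer passed at -0.26 and -0.25, and 4 of the 28 were lower; leaving out L490 also left 4 lower, and leaving out L479, L507, L509 or L581 left 5.

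**Figure D3:**
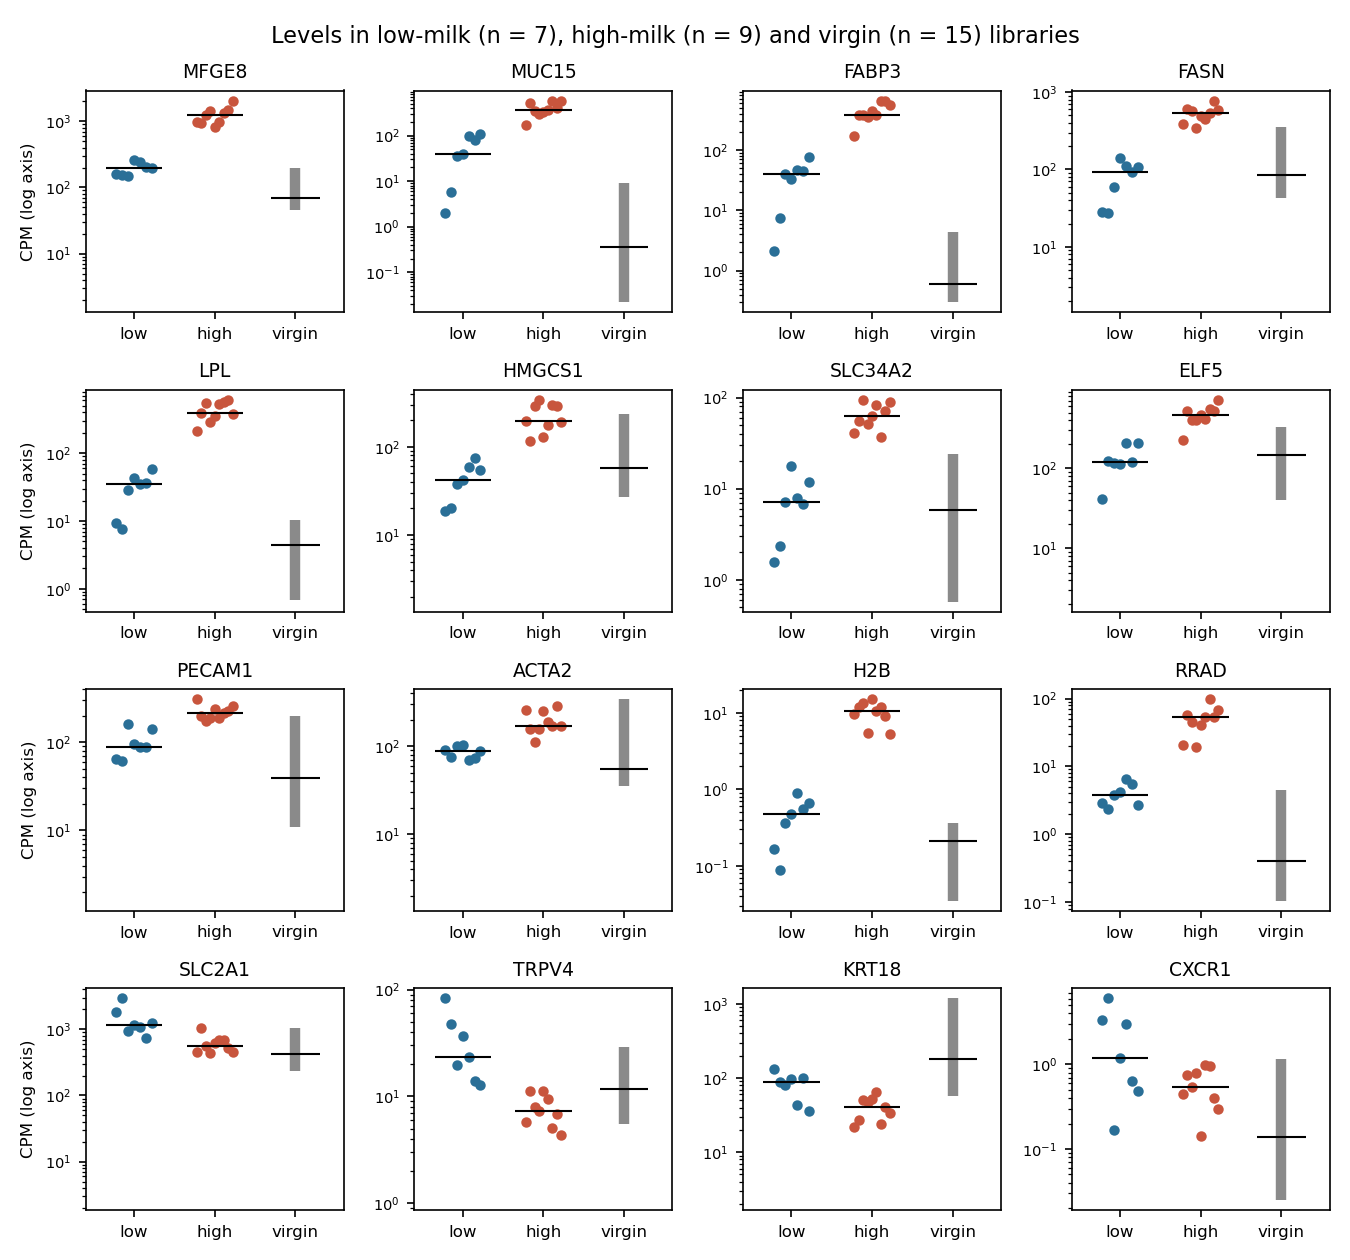
Levels of 16 genes in CPM on log axes: points are the low-milk (n = 7, blue) and high-milk (n = 9, red) lactating libraries in order of milk share, black lines are medians, and grey bars are the range of the 15 virgin libraries. MFGE8, LPL, HMGCS1 and the other genes of the top 2 rows are higher in the high-milk class, SLC2A1, TRPV4, KRT18 and CXCR1 are lower in the high-milk class, and L538 and L478 are the 2 leftmost points.

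Genes lower in high-milk libraries had smaller differences than those that were higher. TRPV4, a calcium channel opened by swelling, had 4.33 to 11.3 CPM (median 7.35) in high-milk libraries and 12.7 to 83.0 CPM (median 23.4) in low-milk libraries, the largest of the lower genes named by the rule at -2.14 ± 0.35. ADAM8, a membrane protease, had 6.79 to 15.9 CPM (median 9.55) against 24.1 to 48.3 CPM (median 27.6). PRSS22, a serine protease, had 141 to 295 CPM (median 193) against 339 to 840.3 CPM (median 376). In all 3, L538 was the highest lactating library.

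Among the other lower genes were ones that act in epithelial junctions and transport. LSR, a component of tricellular junctions, had 7.77 to 14.9 CPM (median 12.9) against 16.8 to 46.4 CPM (median 24.1). NEDD4L, a ubiquitin ligase that removes sodium channels, had 113 to 188 CPM (median 161) against 218 to 580.5 CPM (median 331). CDS1, of phosphatidylinositol synthesis, SEMA4D, a semaphorin, and TFCP2L1, a transcription factor of ductal epithelium, differed by -1.20 ± 0.17, -1.22 ± 0.18 and -1.17 ± 0.20. NHSL1 and MAPT, tau, with a locus over 2 times its length, differed by -1.38 ± 0.21 and -1.31 ± 0.19. L478 and L538 were the 2 highest lactating libraries in each of the genes of this paragraph except TFCP2L1, in which L538 was the lowest low-milk library.

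Markers of luminal cells as a class, as opposed to the secretory genes, were lower in high-milk libraries. Of 16 tested, 1 was higher and 10 lower, with a median of -0.55 (1 and 14 without TMM factors, 1 and 4 without L478 and L538, 1 and 0 against the own virgin libraries). Leaving out L478 or L538 alone left 6 lower. KRT18, a luminal keratin, had 21.8 to 64.5 CPM (median 40.2) against 36.0 to 134 CPM (median 88.1), and KRT7, another, had 135 to 311 CPM (median 197) against 159.6 to 533 CPM (median 449). MUC1, given above, was the member that was higher. Of 9 luminal progenitor markers, 3 were higher and 3 lower (1 and 5 without TMM factors, 1 and 2 without L478 and L538, 1 and 0 against the own virgin libraries). Among the higher were ELF5, given above, at 1.82 and CD14, given below, at 1.06. Among the lower, ALDH1A3, a retinaldehyde dehydrogenase, had 79.4 to 395 CPM (median 162) against 194 to 744 CPM (median 329). CYP24A1, which degrades vitamin D, differed by -1.33 ± 0.37 and ITGA2, an integrin subunit, by -1.12 ± 0.18.

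Basal and myoepithelial markers were divided. Of 18 basal and myoepithelial markers, 8 were higher and 1 lower, with a median of 0.35 (4 and 5 without TMM factors, 9 and 0 without L478 and L538, 0 and 0 against the own virgin libraries). The 4 with the largest differences act in contraction. ACTA2, smooth muscle actin, had 111 to 289 CPM (median 171) against 70.3 to 104 CPM (median 87.7), without overlap but with a locus over 2 times its length. MYH11, smooth muscle myosin, had 279 to 490.3 CPM (median 402) against 146 to 227 CPM (median 194), and TPM2 and CNN1 differed by 1.25 ± 0.22 and 1.08 ± 0.20. KRT14 and KRT5, counted over loci that carry 4 and 6 names, did not pass, at 0.14 ± 0.13 and 0.35 ± 0.18, and both changed sign without TMM factors. The contraction genes are also made by vascular smooth muscle and pericytes. The endothelial markers and RGS5, both given below, were higher in the same libraries, and their part in these values was not tested.

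Every endothelial marker tested was higher in the high-milk libraries. All 17 passed, against 14.4% of all rows, and 13 did not overlap between the classes, against 3.18% of all rows. The median was 1.43 (15 and 0 without TMM factors, 16 and 0 without L478 and L538, 0 and 0 against the own virgin libraries). The summed level of the list was 1071 to 2173 CPM in the high-milk libraries, 311 to 849 CPM in the low-milk libraries and 40.2 to 901 CPM in the virgin libraries. ESAM, an endothelial adhesion molecule, had 27.7 to 64.0 CPM (median 45.9) in high-milk and 3.80 to 24.0 CPM (median 11.9) in low-milk libraries. TEK, the angiopoietin receptor, had 13.8 to 26.5 CPM (median 19.6) against 2.43 to 10.4 CPM (median 6.33), and PECAM1, whose locus carries 2 names, had 176 to 309.6 CPM (median 218) against 62.0 to 162 CPM (median 89.3). The endothelial list moved with the milk genes, and its part in the other differences was not tested.

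In the change from the virgin library of the same animal, no endothelial gene differed between the classes past the threshold. The list sum itself had medians of 1609 CPM in high-milk, 553 CPM in low-milk and 189 CPM in virgin libraries. In edgeR's fit of that comparison 0 of 17 passed, with 0 higher and 0 lower at an unadjusted p under 0.05, and the median was -0.39. ESAM had 0.04 there, TEK 0.42 and CLDN5, a tight junction protein of capillaries, -0.02. The corresponding median of the milk fat globule list was 2.22, above its value of 1.95 between the classes.

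Other cells of the biopsy differed less evenly. Of 19 fibroblast and pericyte markers, 3 were higher, near the share of 14.4% over all rows, and 1 lower (1 and 4 without TMM factors, 1 and 1 without L478 and L538, 0 and 1 against the own virgin libraries). RGS5, a pericyte gene with a locus over 2 times its length, led at 1.40 ± 0.25, and the summed levels overlapped, at 1922 to 3785 CPM and 1017 to 2885 CPM. Of 9 adipocyte markers, 5 were higher and 0 lower (4 and 2 without TMM factors, 4 and 0 without L478 and L538, 1 and 0 against the own virgin libraries), among them LPL, which alveolar cells also make. FABP4, a fatty acid carrier also made by capillaries, had 356 to 1220.3 CPM (median 702) against 25.7 to 411 CPM (median 188), while ADIPOQ and PLIN1, which define adipocytes, were at 0.772 to 2.14 CPM (median 1.70) and 0.683 to 1.38 CPM (median 0.979) in high-milk libraries and did not pass. LIPE and PPARG differed by 2.29 ± 0.34 and 1.18 ± 0.24. None of 8 red blood cell markers was tested.

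No lymphocyte marker of 16 passed in edgeR's quasi-likelihood fit (0 higher and 0 lower at an unadjusted p under 0.05, 0 by DESeq2; 0 and 8 without TMM factors, 0 and 0 without L478 and L538, 0 and 0 against the own virgin libraries), and PTPRC, the CD45 antigen of all leukocytes, had 18.6 to 33.9 CPM (median 28.2) and 19.7 to 46.9 CPM (median 27.9). Of 17 macrophage markers 2 were higher, near the share of 14.4% over all rows, and 0 lower (0 and 13 without TMM factors, 0 and 0 without L478 and L538, 0 and 0 against the own virgin libraries). They were CD14 at 1.06 ± 0.29 and FCER1G at 0.39 ± 0.10, each over a locus more than 2 times its length, and the sums of the list were 286 to 718 CPM and 198 to 507.5 CPM. Plasma cell markers had 1 of 8 higher, PRDM1, at 0.74 ± 0.20, again near the share over all rows, and 0 lower (0 and 2 without TMM factors, 1 and 0 without L478 and L538, 0 and 0 against the own virgin libraries). Neutrophil markers went the other way: of 8 tested, 0 were higher and 5 lower, with a median of -1.75 (0 and 7 without TMM factors, 0 and 0 without L478 and L538, 0 and 0 against the own virgin libraries). CXCR1, an interleukin-8 receptor of neutrophils, had 0.142 to 0.996 CPM (median 0.539) against 0.169 to 6.04 CPM (median 1.18), with 6.04 in L478 and 3.33 in L538, and the sum of the list was 104 CPM in L478 and 76.8 CPM in L538 against 15.3 to 34.2 CPM in the high-milk libraries.

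Cytokine genes were higher in the high-milk class, in which neutrophil markers were lower, but not library by library. L478 and L538, with the neutrophil sums given above, had cytokine list sums of 4845 and 5808 CPM. The low-milk range was 2735 to 5808 CPM (median 4459) and the high-milk range 5463 to 8245 CPM. Of 21 genes of cytokines and NF-kappaB feedback, 11 were higher and 0 lower, with a median of 0.78 (7 and 4 without TMM factors, 13 and 0 without L478 and L538, 1 and 0 against the own virgin libraries). CSF3, the granulocyte growth factor, had 16.1 to 56.1 CPM (median 24.3) in high-milk and 2.75 to 11.4 CPM (median 6.03) in low-milk libraries, without overlap. TNF had 16.5 to 168 CPM (median 33.9) against 3.69 to 28.0 CPM (median 6.60), IL1A differed by 1.61 ± 0.51, and CCL20, a chemokine mostly near or under 2 CPM, by 3.07 ± 0.62. L507 was the highest library in TNF and IL1A.

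Acute phase and antimicrobial genes were more often lower than higher. Of 14 tested, 1 was higher, LPO, given above, and 6 lower, with a median of -1.17 (1 and 10 without TMM factors, 1 and 1 without L478 and L538, 0 and 0 against the own virgin libraries). HP, haptoglobin, had 0.290 to 10.00 CPM (median 2.30) against 0.507 to 57.4 CPM (median 6.91), with the highest value in L538. S100A8, S100A9 and S100A12, the calgranulins, differed by -2.10 ± 0.58, -2.04 ± 0.54 and -1.93 ± 0.55, and LAP, a beta-defensin of the bovine mucosa, by -2.08 ± 0.55. The S100 genes are also members of the neutrophil list, so the higher level of that list in the low-milk libraries holds the same values in part. The part of neutrophils in the acute phase values was not tested.

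Stress and interferon genes were less divided. Over all rows, 14.4% were higher and 14% lower, the shares to set beside the counts of this paragraph. Of 24 immediate early and heat shock genes, which digestion of tissue can switch on, 8 were higher and 1 lower, with a median of 0.24 (2 and 9 without TMM factors, 9 and 1 without L478 and L538, 1 and 0 against the own virgin libraries). BTG2, over a locus more than 2 times its length, and GADD45B, of growth arrest, had differences of 1.37 ± 0.25 and 1.24 ± 0.17, and EGR2 was the lower member, at 35.0 to 83.3 CPM (median 45.4) against 44.2 to 225 CPM (median 116). Of 22 interferon-stimulated genes, 5 were higher and 1 lower (0 and 5 without TMM factors, 3 and 1 without L478 and L538, 0 and 0 against the own virgin libraries), the lower one being MX2, with a locus over 2 times its length, at -1.22 ± 0.30. Of the interferon-stimulated genes, 2 were higher without L478, 3 without L502 and 8 without L538. Of 25 genes of LIF, STAT3 and involution, the regression of the gland after weaning, 7 were higher and 2 lower (0 and 11 without TMM factors, 3 and 1 without L478 and L538, 0 and 0 against the own virgin libraries). IGFBP5, which binds insulin-like growth factor, had 115 to 226 CPM (median 153) against 46.7 to 156 CPM (median 107), STAT3 differed by 0.33 ± 0.09 and SOCS3 did not pass, at 0.38 ± 0.15. The 2 lower genes, named after their values were seen, were CTSB, a lysosomal protease, at -0.65 ± 0.15 and FAS, a death receptor, at -0.35 ± 0.11.

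L478 and L538, the libraries of lowest milk share, were also looked at apart from the other 5 of their class. Over all 13755 rows they were both the lowest of the 16 in 8.48% and both the highest in 8.64%. Without them, 1357 rows were higher and 1053 lower, 1310 and 1011 of them among the calls with all 16.

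Their distance from those 5 libraries was not the same in every gene. In SCD they had 26.2 and 17.8 CPM where the other low-milk libraries had 218 to 501.7 CPM. In LPL they had 7.62 and 9.18 CPM, against 28.8 to 58.7 CPM, and in SLC34A2 2.37 and 1.59 CPM, against 6.71 to 17.8 CPM. In RRAD the low-milk libraries lay together between 2.35 and 6.61 CPM, and in MFGE8 between 149 and 259 CPM, with a gap to the high-milk libraries. XDH in L478 and L538, at 284 and 258 CPM, was above all virgin libraries, where FASN was below all of them.

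**Figure D4:**
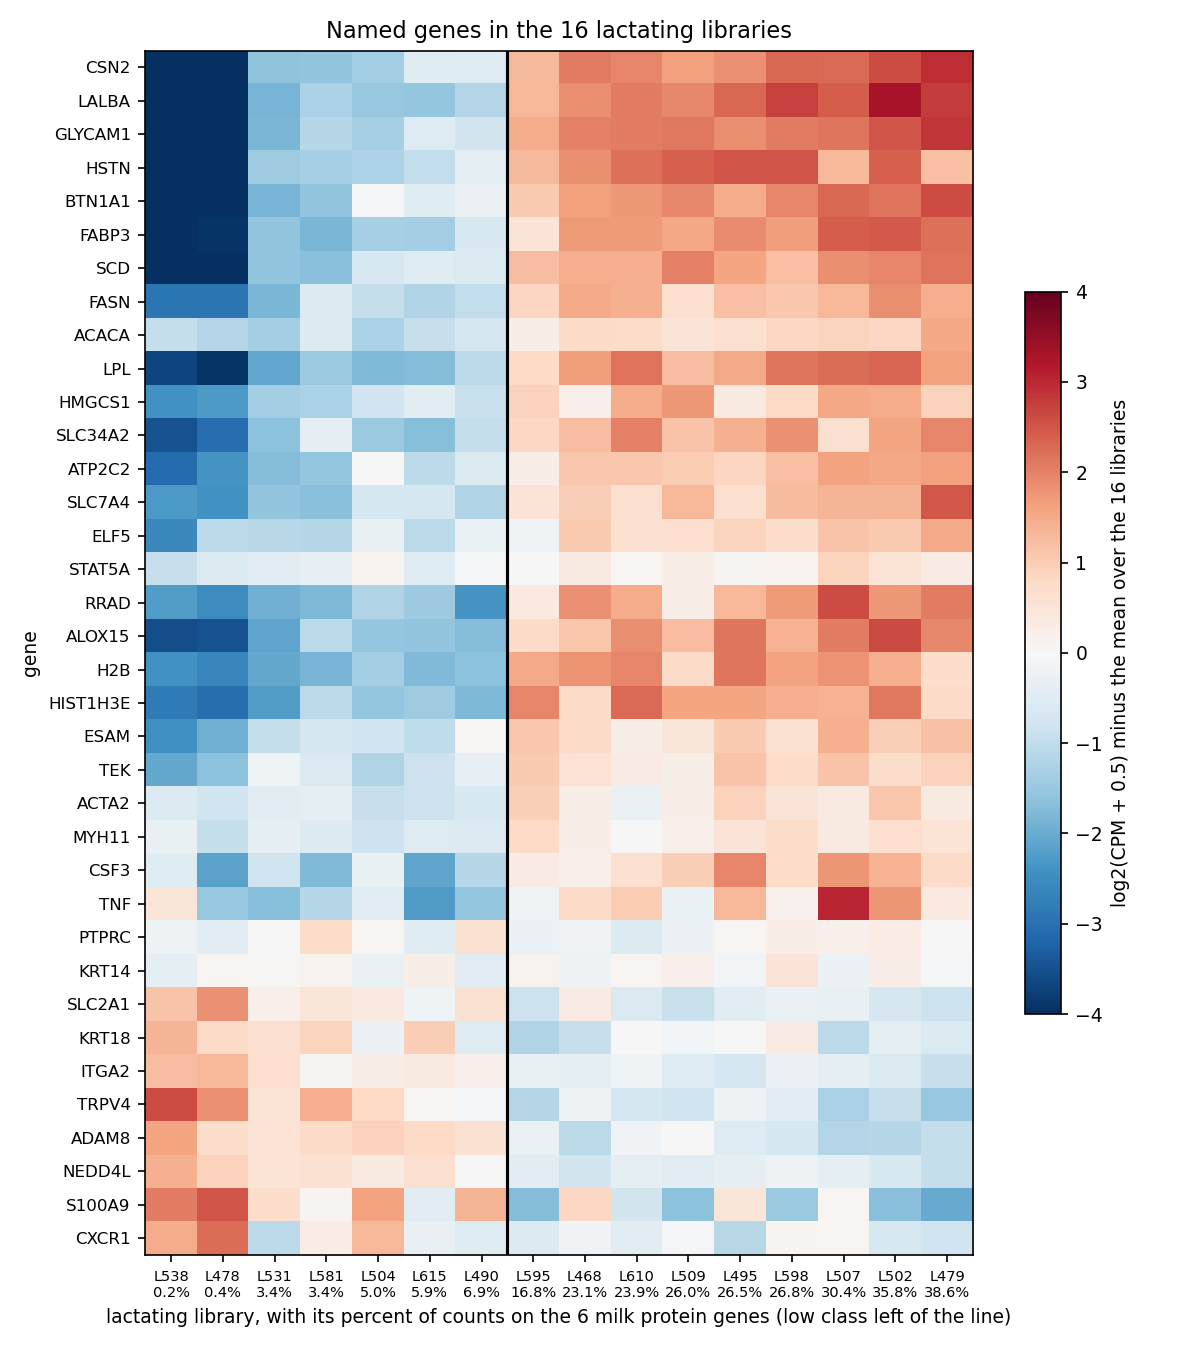
Log2(CPM + 0.5) of 36 named genes, minus each gene's mean over the 16 libraries, as colour limited at 4 in each direction; libraries run from the lowest milk share (L538) to the highest (L479) and the black line parts the classes. L538 and L478 are the darkest blue columns in the milk and fat genes and the reddest in TRPV4, SLC2A1 and S100A9, whereas H2B, RRAD and MYH11 differ mainly across the line.

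The virgin libraries took no part in the rule, so here the classes could be tested, as 8 animals that later had high-milk libraries against 7 that later had low-milk ones (the animal of L495 has no virgin library). In edgeR's quasi-likelihood fit of the 15 virgin libraries, 0 of 13755 rows (0%) passed an adjusted p of 0.05, the smallest adjusted p being 0.253. At an unadjusted p under 0.05 there were 979 rows, 662 higher (4.81%) and 317 lower (2.3%) in the later high-milk animals, and DESeq2 called 74 higher and 3 lower. The share of counts on the 6 milk genes was 0.0912% ± 0.143 (SD, n = 8) and 0.0528% ± 0.0336 (SD, n = 7), a difference of 0.0384 percentage points (two-sided exact permutation test over 6435 relabellings, p = 0.806). V509 alone had 0.440%, and without it the difference was -0.0114.

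The rows with a symbol and the smallest p in the virgin libraries were ABCG1, MGC139164, TOB1, PIK3CG and CD300LG, each with an edgeR adjusted p of 0.366. ABCG1, a cholesterol exporter, had 11.3 to 37.7 CPM (median 18.4) in the later high-milk and 3.43 to 10.5 CPM (median 7.82) in the later low-milk animals, a log2 difference of 1.40 ± 0.27. TOB1, an inhibitor of proliferation, went the other way at -0.80 ± 0.17, with 59.6 to 113 CPM against 113 to 182 CPM. Neither overlapped between the groups, but both rows were picked for their small p. In TOB1 the nearest values were 113.43 CPM in the later high-milk and 113.48 CPM in the later low-milk animals. CD300LG, made by capillary endothelium, had 3.16 to 6.08 CPM against 0.259 to 2.76 CPM.

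Endothelial markers lay on the same side in the virgin libraries, but none passed the test (adjusted p from 0.366 to 0.575 in edgeR). The log2 difference of later high-milk minus later low-milk animals was positive in all 17, each at an unadjusted p under 0.05 (against 4.81% of all rows), with a median of 1.86 against -0.018 over all rows. These are markers of 1 cell type that vary together, so they do not count as separate tests. DESeq2 called 6 of the 17 higher. Their summed level was 175 to 901 CPM in the later high-milk and 40.2 to 227 CPM in the later low-milk animals, so the groups overlapped. ESAM had a difference of 2.03 ± 0.59 among virgin libraries, CDH5, the adhesion molecule of endothelial junctions, 1.99 ± 0.47 and KDR, a receptor of vascular endothelial growth factor, 1.08 ± 0.30. Across the 25 alternatives run for the virgin libraries, the median of the list stayed between 1.48 and 2.15, and at least 14 of its members had an unadjusted p under 0.05.

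**Figure D5:**
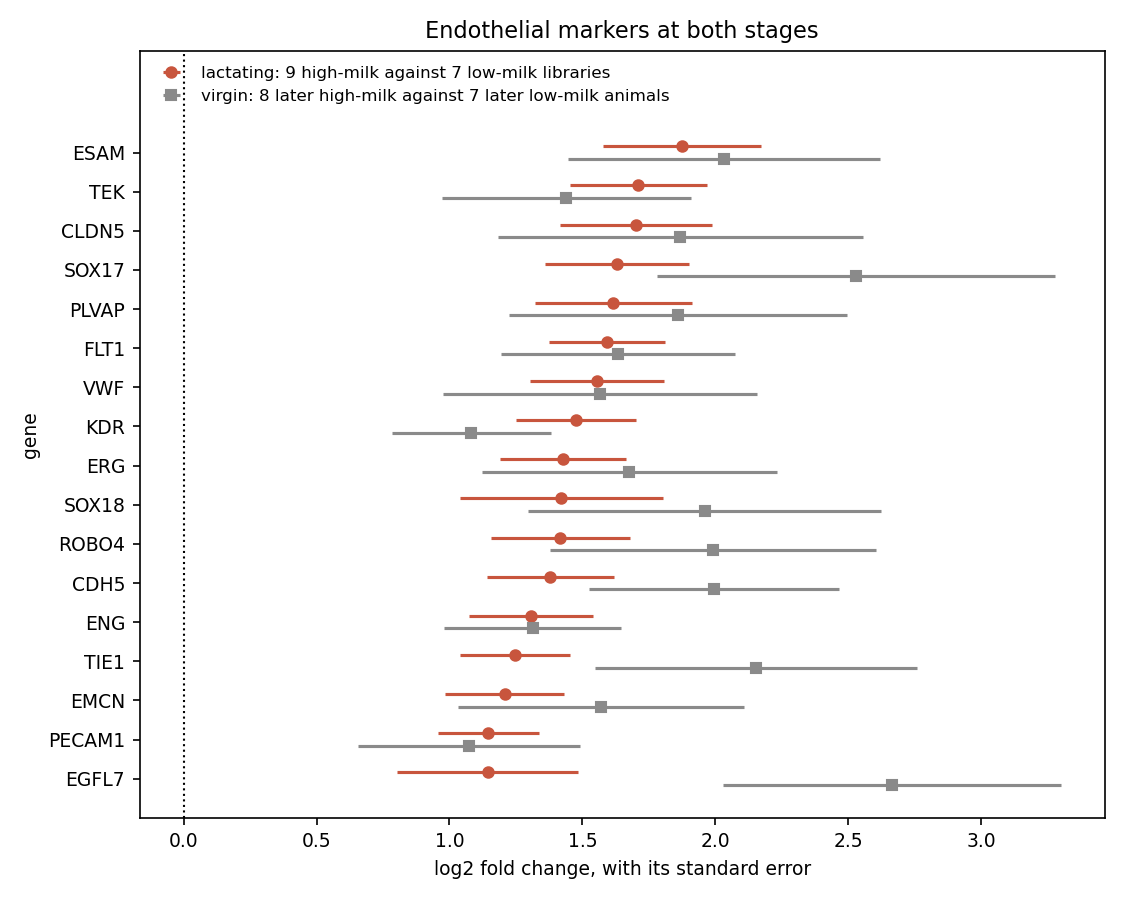
Log2 difference and its SE for the 17 endothelial markers, as red circles between the 9 high-milk and 7 low-milk lactating libraries and as grey squares between the virgin libraries of 8 later high-milk and 7 later low-milk animals. All points lie right of 0, from 1.14 to 1.88 in lactation and from 1.07 to 2.66 in virgin libraries, where the errors are wider.

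Fibroblast and macrophage markers had positive medians in the virgin libraries too, with counts that moved with single libraries. Of 19 fibroblast and pericyte markers, 15 were higher at an unadjusted p under 0.05, with a median of 1.49, but without V502, whose summed level of 27806 CPM was the highest, 1 was. Of 17 macrophage markers, 4 were higher at an unadjusted p under 0.05, with a median of 0.84; 0 were without V478, V502, V504 or V531, each left out alone, 2 without V479 or V615, 9 without V468 and 13 without V581. Milk fat globule genes had a median of 0.57 with 2 of 11 at an unadjusted p under 0.05, and 0.09 without V509. Other milk proteins had a median of -0.06 with 1 of 17 at an unadjusted p under 0.05, and luminal markers -0.12 with 0 of 16. Of 24 immediate early and heat shock genes, 1 was higher and 7 lower at that level (2.3% of all rows were lower), with a median of -0.52. Without V478 or V490, each left out alone, 2 were lower. Cell cycle genes had a median of 0.74 with 4 of 28 higher, and 0 without V502 or V509, each left out alone. None of the members of any of these lists passed after adjustment in edgeR.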

How the data were processed

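RNA-seq counts of 31 organoid libraries from 16 cows were used. Per the labels' protocols, strand-specific poly-A libraries were made from RNA with an RNA integrity number of at least 7.5. The submitters' processing notes name HISAT2 2.0, StringTie 1.3.2, featureCounts 1.5.2, SAMtools, Subread and edgeR, and the build UMD3.1; no settings are stated. The authors deposited raw read counts for 14084 rows and, from the same libraries, RPKM values; the RPKM were used only to recover the length over which each row was counted. Those lengths are close to whole gene spans, introns included, and 592 loci stand under more than 1 name (13407 distinct loci), so loci were also counted once as an alternative. Of 12283 rows with a RefSeq span (ARS-UCD2.0, used for names and lengths only), 1026 were counted over more than 2 times that span and can hold reads of neighbours; the sources do not state whether counting used strand. No sequences are printed.

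Milk shares used all rows, with a limit of 10% over 6 genes. Rows were filtered with edgeR 4.0.16 filterByExpr (minimum count 10, total 15) over 31 libraries, leaving 13755, scaled by TMM over 31 libraries, and fitted by robust quasi-likelihood on the 16 lactating or the 15 virgin libraries, with Benjamini-Hochberg adjustment. The steps were tested on simulated data. DESeq2 1.42.0, other filters and scalings, left-out libraries and the 6 genes left out of scaling were alternatives. Each library is 1 animal and replicates are animals. Same-numbered libraries come from the same animal, per the labels; own pairs correlated at 0.038 to 0.415 after removal of group means (mean 0.209 over 15 pairs, 14 over 0.1, against -0.016 between different animals). The classes, gene lists and members were chosen with earlier results of these data known. Named genes are the 12 largest differences in each direction past the threshold (average log2 CPM of at least 2, no overlap, the 6 genes left out), the 4 largest of each list, a fixed set of pathway genes and the 5 virgin rows of smallest p; some genes that meet these rules are not reported here. Outside these rules, and after their values were seen, CLU, PLIN2, PLIN3, ME1, LPIN2, SLC27A1, ATP2A2, ATP2B1, H1F0, HIST2H2BE, the HIST1H2BD locus, CFD, ADIPOQ, PLIN1, FCER1G, CTSB, FAS and CCNE2 were named. Intervals of counting error are not given, since each library holds at least 20128378 counts.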

Additional observations from a re-analysis of the deposited data

Results flagged for a closer look

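Of 286 sets of values checked (each named gene in each class, and the virgin milk shares), 29 held a library that lay far from the rest of its group by Dixon's gap test. For independent, normally spread values, chance alone gives about 1 in 20. Levels were checked without logs and genes of 1 library vary together, so the count cannot be read as an excess over that rate. No cause of these values was tested. Among the virgin libraries, V509 held 0.440% of its counts on the 6 milk genes where the other later high-milk animals had 0.0200 to 0.0889%, and V490 held 0.123% where the other later low-milk animals had 0.0241 to 0.0627%.

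L468 stood above the other high-milk libraries in SLC2A1 at 1042 CPM (others 445 to 680.5), SLC1A1 at 97.2 CPM (others 42.2 to 67.6) and JAK2 at 229 CPM (others 122 to 159). L479 stood above the other high-milk libraries in FOLR1 at 186 CPM (others 37.6 to 98.7), ACACA at 207 CPM (others 86.4 to 131), B4GALT1 at 1040.0 CPM (others 440.5 to 671), SLC7A4 at 50.6 CPM (others 12.7 to 22.6), CISH at 67.8 CPM (others 25.6 to 34.6) and TFF3 at 106 CPM (others 20.4 to 60.9). L502 stood above the other high-milk libraries in SREBF1 at 85.6 CPM (others 28.7 to 52.6). L507 stood above the other high-milk libraries in LIPE at 3.49 CPM (others 0.905 to 1.80), TNF at 168 CPM (others 16.5 to 68.3) and IL1A at 46.2 CPM (others 4.20 to 16.9). L478 stood above the other low-milk libraries in SLC30A4 at 91.5 CPM (others 40.6 to 56.7). L490 stood above the other low-milk libraries in LPO at 116.5 CPM (others 0.711 to 34.2), UGP2 at 84.5 CPM (others 19.4 to 41.4), HIST2H2BE at 76.9 CPM (others 29.7 to 48.0), BTG2 at 650.3 CPM (others 216 to 392) and CENPF at 6.14 CPM (others 0.720 to 2.64). L504 stood above the other low-milk libraries in PLIN2 at 1161 CPM (others 256 to 579.8), PLIN3 at 87.7 CPM (others 31.7 to 43.7) and CD14 at 283 CPM (others 81.4 to 153). L538 stood above the other low-milk libraries in ADAM8 at 48.3 CPM (others 24.1 to 30.3), IL1A at 9.92 CPM (others 2.38 to 5.25), MX2 at 40.1 CPM (others 8.76 to 17.4) and SOCS3 at 214 CPM (others 108 to 142), and below them in STAT3 at 665 CPM (others 764 to 831).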

How the results depend on the processing

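Between the high-milk and low-milk libraries, 1977 rows were higher and 1932 lower. Without TMM factors the counts were 526 and 8465. With the replicate block, which compared the classes in the change from the virgin library of the same animal, they were 154 and 25. The lower count was 1053 without L478 and L538, the 2 libraries under 2%. Leaving out each lactating library in turn (leave-one-out) gave 1704 to 2146 higher and 1492 to 2119 lower. Other scalings, filters, class limits, loci counted once and DESeq2 gave 1756 to 2115 higher and 1880 to 2287 lower. In the virgin libraries, edgeR called 0 rows under all its settings, leaving out each library included (0 to 0), and DESeq2 74 higher and 3 lower. The virgin milk share difference, 0.0384 percentage points, was -0.0114 without V509 and reached 0.0502 without V490, the lowest and highest of the leave-one-out values.

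Of 141 named genes, 12 turned sign without TMM factors, PLIN2 -0.321, PLIN3 -0.377, B4GALT1 -0.199, STAT5B -0.112, GHR -0.464, KRT14 -0.385, KRT5 -0.167, ADIPOQ -0.459, FCER1G -0.139, STAT3 -0.211, SOCS3 -0.155 and CCNE2 -0.0434 on the log2 scale. Under the replicate block, 87 no longer passed and 12 turned, PLIN2 -0.217, PLIN3 -0.258, THRSP 0.0884, SLC30A4 0.0648, KRT14 -0.088, KRT5 -0.126, CLDN5 -0.0205, SOX17 -0.673, FABP4 -0.69, CFD -0.0124, ADIPOQ -0.495 and PRDM1 -0.336. Without L478 and L538, 20 no longer passed, and SLC30A4 0.117 and ADIPOQ -0.289 turned; with classes from loci counted once, PTPRC 0.0585 and CENPF 0.13 turned. The cause was not tested. Counting depth did not limit most values, but genes under 1 CPM rest on few counts.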
